A study of Sus scrofa with 9 samples.

Results

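The circadian clock genes described here are CLOCK, ARNTL, PER1, PER2, PER3, CRY1, CRY2, NR1D1, NR1D2 and DBP. They were chosen by symbol, and all 10 were found among the 25918 genes of the deposited table. Liver RNA came from 9 Wujin pigs, a Chinese breed, with 3 pigs each fed a low-iron, a control or a high-iron diet. The feed carried 0, 100 and 200 mg/kg of added iron in that order, for 5 days of prefeeding and 30 days of feeding from an age of 35 days. Pigs are named by diet and animal number, which was 2, 3 and 7 for the low-iron group, 4, 5 and 6 for the control group, and 2, 7 and 8 for the high-iron group. A number that occurs in more than 1 group stands for different animals. The study raised male and female piglets in equal number, and the paper does not give the sex of the sequenced pigs. Each library came from a single pig, and the hour at which a liver was taken is not given in the sources used here, so the libraries cannot be placed on the daily cycle.

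The circadian clock is a feedback loop of transcription that runs in nearly every cell and is strong in liver. CLOCK and ARNTL (also called BMAL1) form the activator pair, which binds E-boxes and switches on the PER and CRY genes, whose proteins then repress the pair. NR1D1 and NR1D2 (REV-ERB alpha and beta) are nuclear receptors that bind heme, an iron-containing molecule, and repress ARNTL and CRY1, while the ROR receptors activate at the same DNA elements. DBP is an output factor that acts on D-boxes in target genes.

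The stretches upstream of the annotated gene starts are shown because the clock proteins act through short motifs there. The 300 bases before each start were read from the Sscrofa11.1 genome and searched on both strands for the E-box CACGTG, the E-box variant CACGTT, the D-box TTATGTAA and the element of the ROR and REV-ERB receptors, NNTAGGTCA. No matches of different motifs overlapped in the clock genes. PER1 and PER3 held the E-box, which stood in 7.07% of 20649 windows of the same length. CRY2 and NR1D1 held the variant (5.45% of windows), in both on the strand opposite to the gene, so that it reads AACGTG below. PER3 held the D-box (0.92% of windows), and CRY2 and DBP held the receptor element (3.10% of windows). The windows of CLOCK, ARNTL, PER2, CRY1 and NR1D2 held none of these letters, which says nothing of the rest of their regulatory DNA. A match is a description of the sequence and not a measured binding site. Each sequence runs 5′ to 3′ on the strand of its gene, with the motifs in capitals and, for the receptor element, its core TAGGTCA.
PER1: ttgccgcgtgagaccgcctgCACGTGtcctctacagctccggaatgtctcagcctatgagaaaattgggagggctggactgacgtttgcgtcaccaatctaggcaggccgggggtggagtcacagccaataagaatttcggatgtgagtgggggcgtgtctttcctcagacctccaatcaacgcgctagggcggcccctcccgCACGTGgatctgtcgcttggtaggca
PER3: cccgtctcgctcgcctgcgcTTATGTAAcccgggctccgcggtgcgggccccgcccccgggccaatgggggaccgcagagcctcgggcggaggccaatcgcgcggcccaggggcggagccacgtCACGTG
CRY2: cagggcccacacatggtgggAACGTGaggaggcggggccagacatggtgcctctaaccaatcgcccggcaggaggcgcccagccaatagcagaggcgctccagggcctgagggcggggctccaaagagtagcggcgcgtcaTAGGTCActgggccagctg
NR1D1: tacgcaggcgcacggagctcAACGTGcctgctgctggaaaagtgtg
DBP: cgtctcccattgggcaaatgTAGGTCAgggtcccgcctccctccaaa
The stretch of PER1 lies at chr12:53376791-53377019 on the minus strand, with E-boxes 276 to 271 and 93 to 88 bases before the gene start. The stretch of PER3 lies at chr6:68487504-68487633 on the plus strand, with the D-box 110 to 103 bases before the start and the E-box in the last 6 bases. CRY2 is shown at chr2:16620381-16620540 on the minus strand, with the variant 140 to 135 and the receptor element 19 to 13 bases before the start. NR1D1 is shown at chr12:22263497-22263542 on the plus strand (variant 32 to 27 bases before the start), and DBP at chr6:53993060-53993106 on the minus strand (receptor element 42 to 36 bases before the start).

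Levels are FPKM, fragments per kilobase of transcript and per mapped fragment, scaled to the size of the library, which can be compared between genes. All 10 clock genes passed the filter of a mean of at least 0.5 FPKM over the 9 libraries, as did 12584 genes in all. By the median over the 9 pigs, the order of levels was NR1D2 (14.4 FPKM), PER1 (9.94), CRY1 (6.64), ARNTL (4.97), CRY2 (4.95), PER2 (2.87), DBP (2.65), PER3 (2.32), NR1D1 (2.23) and CLOCK (1.87). CRY1, NR1D1 and CLOCK share exon bases with other genes, as given below, so their places in this order are less certain. The mean of NR1D2 was above that of 77.2% of tested genes and the mean of CLOCK above that of 26.0%. Among the 9 neighbouring pairs in this order, only CRY2 and PER2 passed the adjustment, with CRY2 above PER2 in 9 of 9 libraries (exact sign-flip test on log2 levels, two-sided p = 0.00391, adjusted p = 0.0352 over the 9 pairs). For the other 8 pairs the adjusted p of this test lay between 0.176 and 0.930, so no difference was shown for them. The neighbours were set by the medians of the same 9 libraries, so the test is a description of the order and not separate evidence for it.

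**Figure D1:**
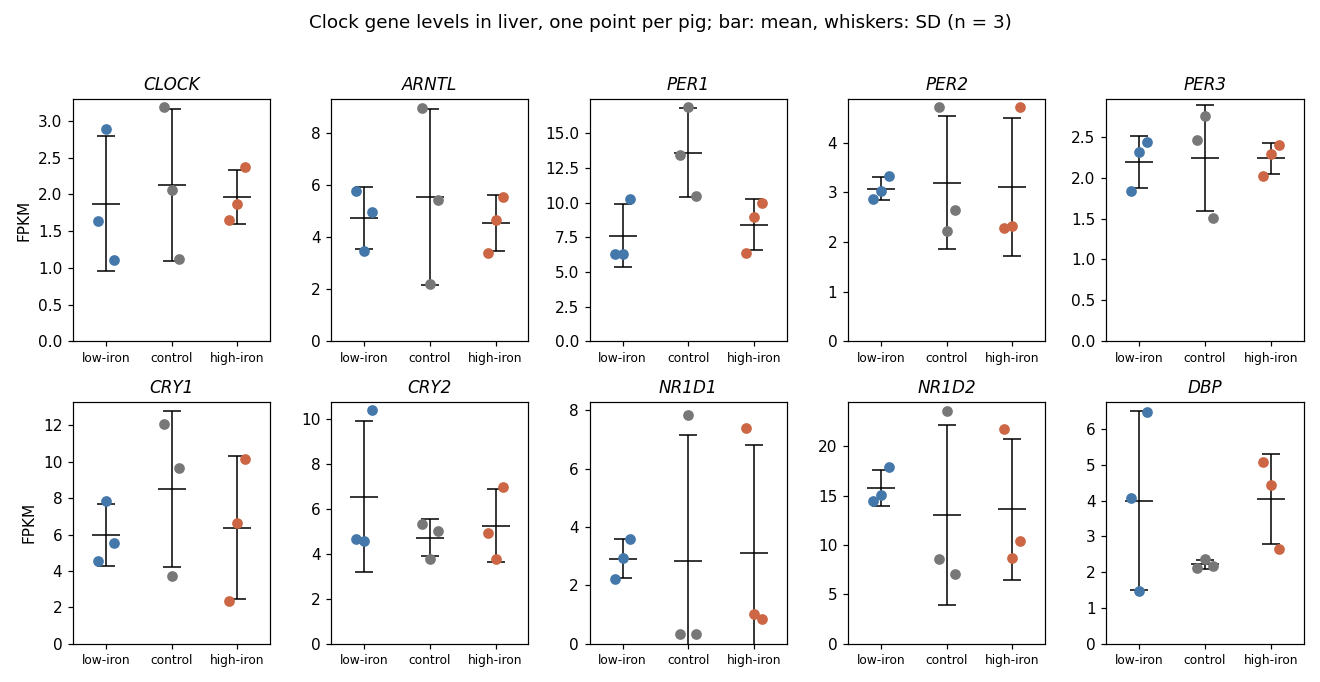
Level of each of the 10 clock genes in FPKM (vertical axis, from 0) by diet (low-iron, control, high-iron), with 1 point per pig, the bar at the group mean and whiskers of 1 SD (n = 3), which are cut off at 0. The control points of PER1 stand above all low-iron and high-iron points, and NR1D1 runs from 0.342 to 7.82 FPKM among the control pigs.

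Differences between diets are given as limma differences of mean log2(FPKM + 0.1), with their standard errors. A gene was called when it reached a fold change of 2 with an unadjusted p under 0.05. None of the 10 clock genes was called in any comparison. Of all tested genes, 0.882% were called between low iron and control, 1.57% between high iron and control, and 1.54% between high and low iron. At an unadjusted p under 0.05 alone, 1 of the 10 stood out between low iron and control, where 3.68% of tested genes did. Between high iron and control it was also 1 of the 10, beside 5.59% of tested genes, and between high and low iron it was 0 of the 10, beside 7.15%. The gene was PER1 in both comparisons with the control group. The 3 libraries of one group all lay on the same side of the 3 of the other for 1 clock gene between low iron and control (8.34% of tested genes), for 2 between high iron and control (10.9%) and for 0 between high and low iron (13.2%). The median difference of the 10 genes was 0.01, 0.02 and -0.06 in these comparisons, and that of all tested genes was 0.08, 0.10 and 0.03. The comparisons share their libraries pairwise, so they are not separate evidence. In bulk liver RNA, a smaller number of cells of a type and less RNA per cell cannot be told apart.

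Among the libraries, high-iron pig 2 and control pig 5 stood farthest from the rest. Their median distance to the other libraries, as a root mean square over tested genes on the log2 scale, was 0.791 and 0.784, against 0.684 to 0.739 for the other 7. Liver markers were high in every library, with a summed level of 7 hepatocyte genes such as ALB and APOA1 between 71059 and 95165 FPKM. Other liver cells were followed by their own markers. The summed level of 5 macrophage markers was 193 to 215 FPKM in the high-iron group, 136 to 143 in the control group and 144 to 181 in the low-iron group. That of 5 endothelial markers was 109 to 123, 81.1 to 86.4 and 81.0 to 117 FPKM in the same order. That of 5 stellate cell markers was 65.5 to 145, 35.8 to 52.6 and 39.4 to 84.5 FPKM. None of the markers in the table was at 0 in all libraries.

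Neither activator gene had a difference between diets that passed the test. CLOCK (chr8:54793323-54910192, minus strand) measured 1.63, 2.89 and 1.10 FPKM in low-iron pigs 2, 3 and 7, 3.19, 2.06 and 1.12 FPKM in control pigs 4, 5 and 6, and 1.66, 1.87 and 2.37 FPKM in high-iron pigs 2, 7 and 8. The lowest and the highest level of CLOCK thus stood at 1.10 and 3.19 FPKM, and all 3 groups overlapped. Its log2 difference from the control group was -0.16 (standard error 0.41) with low iron and -0.01 (standard error 0.41) with high iron. ARNTL (chr2:45895637-46025174, minus strand) measured 5.78, 3.45 and 4.97 FPKM in the low-iron pigs, 8.95, 2.20 and 5.41 FPKM in the control pigs, and 3.39, 4.66 and 5.52 FPKM in the high-iron pigs. Both its highest and its lowest level were in control pigs, the highest in pig 4 and the lowest in pig 5. The log2 difference of ARNTL was -0.04 with low iron and -0.10 with high iron (standard error 0.43 for each). Only 0.567% of the variance of ARNTL lay between the groups, and 2.37% of that of CLOCK. CLOCK shares 3027 of its 6827 annotated exon bases with TMEM165 on the opposite strand, and strand is not stated to have been used in the counting, so reads there cannot be assigned to either gene with certainty.

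PER1 had the largest share of its variance between the diets of the 10 clock genes, with lower levels in every low-iron and high-iron pig than in any control pig. PER1 (chr12:53361863-53376723, minus strand), a repressor that is also induced quickly by hormones and stress signals, measured 6.31, 6.26 and 10.3 FPKM in the low-iron pigs, 13.5, 16.9 and 10.4 FPKM in the control pigs, and 6.34, 8.96 and 9.94 FPKM in the high-iron pigs. Neither group thus overlapped the control group, though control pig 6 was only just above low-iron pig 7. The means were 7.61 ± 2.30, 13.6 ± 3.22 and 8.41 ± 1.86 FPKM (SD, n = 3) in that order. The log2 difference from the control group was -0.84 (standard error 0.27) with low iron and -0.68 (standard error 0.27) with high iron. The unadjusted limma p was 0.00998 and 0.0277, and the adjusted limma p over all tested genes was 0.9998 and 0.892, so neither difference passed the correction. The exact permutation test gave p = 0.1 for each, the smallest that 3 against 3 pigs allow. Over the 3 groups, 60.3% of the variance of PER1 lay between groups (exact permutation of the F statistic, 1680 assignments, p = 0.0750, and limma F test with an adjusted p of 0.896). The low-iron difference lay between -1.07 and -0.67 with each library left out, and PER1 was called there without low-iron pig 7 (-1.07) or control pig 6 (-1.01). In each of these fits 0 tested genes had an adjusted limma p under 0.05. The unadjusted limma p of the high-iron difference rose above 0.05 without control pig 4 (to 0.0606), control pig 5 (to 0.104) or high-iron pig 2 (to 0.110). Macrophage, endothelial and stellate cell marker sums were higher in every high-iron pig than in every control pig, and macrophage sums also in every low-iron pig, as given above. Their part in the PER1 and DBP differences was not tested.

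PER2 and PER3 overlapped between all groups. PER2 (chr15:137793419-137837854, minus strand), a repressor and a partner of PER1, measured 2.87, 3.02 and 3.33 FPKM in the low-iron pigs, 4.72, 2.22 and 2.64 FPKM in the control pigs, and 2.28, 2.31 and 4.72 FPKM in the high-iron pigs. Control pig 4 and high-iron pig 8 shared the highest level to 3 digits, and the group ranges overlapped. The log2 difference of PER2 from the control group was 0.02 with low iron and -0.05 with high iron (standard error 0.34 for each). PER3 (chr6:68487634-68548718, plus strand), the least essential period gene in mice, was the steadiest of the 10. It measured 1.84, 2.32 and 2.43 FPKM in the low-iron pigs, 2.46, 2.76 and 1.51 FPKM in the control pigs, and 2.02, 2.29 and 2.40 FPKM in the high-iron pigs. Its highest level was 1.83 times its lowest, and its log2 differences from the control group were 0.00 and 0.04 (standard error 0.26 for each). The sign of differences this small turned with the scaling of the libraries for PER2 and PER3.

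The cryptochromes, which carry most of the repression of the activator pair, varied within every diet. CRY1 (chr5:13275265-13429566, plus strand) measured 4.53, 7.82 and 5.56 FPKM in the low-iron pigs, 12.1, 3.73 and 9.64 FPKM in the control pigs, and 2.35, 6.64 and 10.1 FPKM in the high-iron pigs. Control pig 5 and high-iron pig 2 had its lowest levels, and the groups overlapped. The log2 difference of CRY1 from the control group was -0.38 with low iron and -0.47 with high iron (standard error 0.53 for each). CRY2 (chr2:16587101-16620380, minus strand) measured 4.67, 4.57 and 10.4 FPKM in the low-iron pigs, 5.34, 3.78 and 5.04 FPKM in the control pigs, and 4.95, 3.80 and 7.004 FPKM in the high-iron pigs. Low-iron pig 7 was the highest for CRY2, and without it the low-iron log2 difference went from 0.37 (standard error 0.34) to -0.02. The high-iron difference of CRY2 was 0.12. The annotated span of CRY1 holds the whole of MTERF2, and 2397 of the 17277 exon bases of CRY1 are also exon of MTERF2 and 1581 of TMEM263. MTERF2 lies on the same strand as CRY1, and reads in the shared bases cannot be assigned to a single gene with certainty. Across the 9 pigs, r with CRY1 was -0.297 for MTERF2 and 0.452 for TMEM263, as a description.

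NR1D1 spanned the widest range of the 10 genes. NR1D1 (chr12:22263549-22274131, plus strand) measured 2.23, 2.94 and 3.59 FPKM in the low-iron pigs, 0.342, 7.82 and 0.346 FPKM in the control pigs, and 7.39, 1.03 and 0.864 FPKM in the high-iron pigs. The 3 low-iron pigs sat close together in the middle, while control pig 5 and high-iron pig 2 were the highest of all 9 and control pigs 4 and 6 the lowest. Its highest level was 22.9 times its lowest. The SD within groups on the log2 scale was 1.69 for NR1D1, larger than that of 99.1% of tested genes, whose median was 0.338. The log2 difference of NR1D1 from the control group was 1.36 (standard error 1.06) with low iron and 0.79 (standard error 1.06) with high iron, with adjusted limma p of 0.9998 and 0.994. The values of NR1D1 rested on single pigs. Without control pig 5 the log2 difference was 2.74 with low iron (standard error 0.75, unadjusted limma p of 0.00457) and 2.18 with high iron (standard error 0.75, unadjusted limma p of 0.0158), both of them calls. Without that pig, 209 and 267 of all tested genes were called in these comparisons, and 0 had an adjusted limma p under 0.05. Without high-iron pig 2 the high-iron difference was -0.15.

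NR1D2 (chr13:10756954-10791219, plus strand), the second REV-ERB gene, measured 14.4, 15.03 and 17.9 FPKM in the low-iron pigs, 8.57, 23.5 and 7.06 FPKM in the control pigs, and 21.8, 8.69 and 10.4 FPKM in the high-iron pigs. The same 2 pigs, control pig 5 and high-iron pig 2, were again the highest, and control pig 6 the lowest. Its range was narrower than that of NR1D1, with the highest level 3.33 times the lowest. The log2 difference of NR1D2 from the control group was 0.48 with low iron and 0.15 with high iron (standard error 0.44 for each). Without control pig 5 the low-iron difference was 1.01 (standard error 0.35, unadjusted limma p of 0.0163), a call in a fit where 0 tested genes had an adjusted limma p under 0.05. NR1D1 shares 2985 of its 7263 exon bases with THRA, the gene of thyroid hormone receptor alpha, on the opposite strand. As for CLOCK, reads there cannot be assigned to either gene with certainty, and their part in the levels of NR1D1 and THRA was not tested. THRA ran the other way from pig to pig (r = -0.793 with NR1D1, as a description) and ranged from 3.70 to 6.75 FPKM.

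DBP, the output gene, was lowest in the control group on average. DBP (chr6:53986955-53993044, minus strand) measured 4.06, 1.47 and 6.48 FPKM in the low-iron pigs, 2.13, 2.36 and 2.17 FPKM in the control pigs, and 5.07, 4.42 and 2.65 FPKM in the high-iron pigs. The control pigs were close together at 2.22 ± 0.123 FPKM (SD, n = 3), every high-iron pig was above them, and low-iron pig 3 was below them. The log2 difference from the control group was 0.60 with low iron and 0.79 with high iron (standard error 0.45 for each). The high-iron difference had an adjusted limma p of 0.932, and the exact permutation test gave p = 0.1, the smallest possible. Without low-iron pig 3 the low-iron difference of DBP was 1.18 (standard error 0.31, unadjusted limma p of 0.00423), a call. In that fit 128 of all tested genes were called and 0 had an adjusted limma p under 0.05. In the comparison of the high-iron with the low-iron group, the log2 differences of the 10 genes lay between -0.56 for NR1D1 and 0.19 for DBP, and the smallest adjusted limma p was 0.927.

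**Figure D2:**
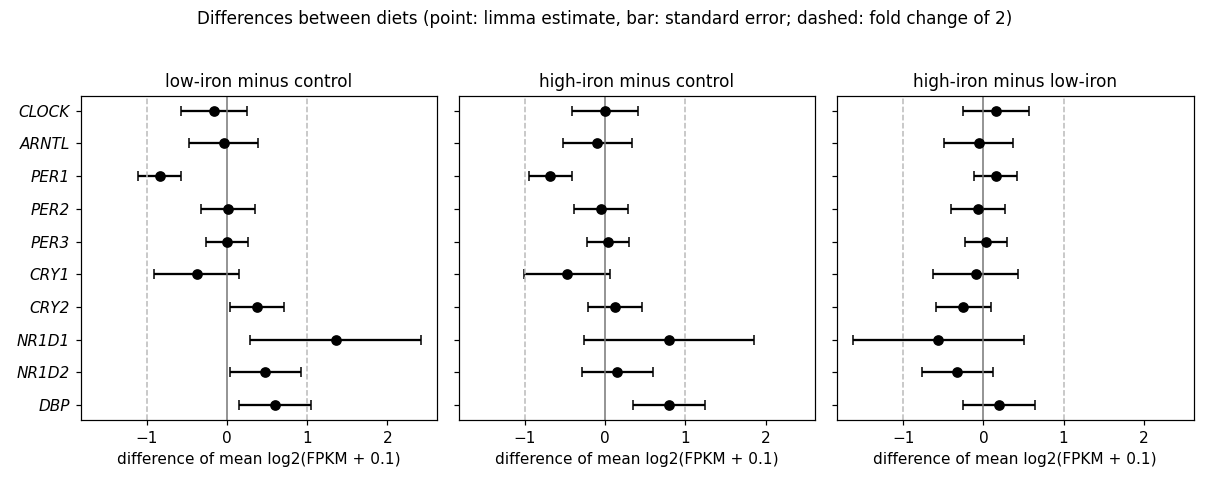
Differences of mean log2(FPKM + 0.1) for the 10 clock genes (rows) in the 3 comparisons (panels), with points for the limma estimate, bars of 1 standard error and dashed lines at a fold change of 2. PER1 lies at -0.84 and -0.68 against the control group, and the bars of NR1D1, of 1.06, are the widest.

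For the 9 clock genes other than PER1, between 0.464% (PER3) and 27.3% (DBP) of the variance lay between the diets, and the order of the single pigs was therefore described as well. Pearson's r of log2(FPKM + 0.1) was computed for all 45 pairs of clock genes over the 9 pigs, with exact permutation tests over 362880 pairings and Benjamini-Hochberg adjustment over the 45 pairs. Of the 45, 25 were positive and 20 negative, 8 had an unadjusted p under 0.05 and 2 an adjusted p under 0.05. NR1D1 and NR1D2 rose and fell together (r = 0.975, exact permutation p = 4.96e-05, adjusted p = 0.00223). Spearman's rho for this pair was 0.967 (exact permutation p = 0.000165, adjusted p = 0.00744). Within groups, as deviations from the group means, r was 0.979 (permutation within groups, p = 0.0278), and after leaving out the 2 libraries with NR1D1 farthest from its median it was 0.975. Of all other tested genes, NR1D2 was the one most like NR1D1. Control pig 5 and high-iron pig 2, the highest in both genes, were also the libraries farthest from the rest over all tested genes. The r of the clock gene pairs without both of them was not computed.

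CRY1 ran opposite to NR1D1 (r = -0.876, exact permutation p = 0.00221, adjusted p = 0.0498). Spearman's rho was -0.883 (exact permutation p = 0.00308, adjusted p = 0.0692), and r within groups was -0.888 (permutation p = 0.0602). Without the 2 libraries with CRY1 farthest from its median, high-iron pig 2 and control pig 4, r was -0.812. With 1 library left out, r stayed between -0.927 and -0.838, and the adjusted p missed 0.05 for 8 of the 9 left-out libraries, low-iron pig 3 being the exception. ARNTL, which NR1D1 is known to repress, also ran opposite to it (r = -0.813, exact permutation p = 0.00635, adjusted p = 0.0769). For ARNTL Spearman's rho was -0.817 (exact permutation p = 0.0108, adjusted p = 0.156), and r within groups was -0.864 (permutation p = 0.0370). Without control pigs 4 and 5, the 2 libraries with ARNTL farthest from its median, r was -0.653. The r of NR1D2 with CRY1 was -0.826 and with ARNTL -0.727, with adjusted p from the exact permutation tests of 0.0769 and 0.208. ARNTL, PER2 and CRY1 were positively related to each other, with r of 0.714 for ARNTL and PER2, 0.711 for PER2 and CRY1 and 0.667 for ARNTL and CRY1, and adjusted p of 0.210 to 0.275. Within groups 0 of the 45 pairs passed the adjustment, a test in which the 216 permutations give no p small enough for a single pair to pass. PER1, the gene with the largest share of variance between diets, had r of -0.198 with NR1D1 and -0.00884 with ARNTL.

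**Figure D3:**
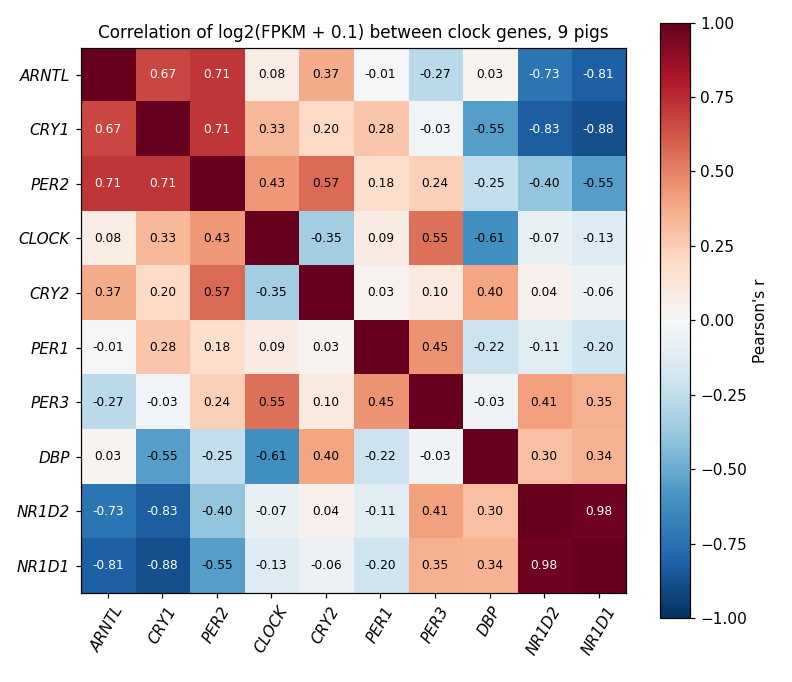
Pearson's r between the clock genes over 9 pigs, on log2(FPKM + 0.1), from blue (-1) to red (1), with r printed in each cell. NR1D1 and NR1D2 form a red block at 0.98 and are blue against ARNTL and CRY1, with r from -0.88 to -0.73.

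The other genes of the clock pathway were taken by lists, and none of these lists held a gene that was called. Of the transcription factors around the loop, 6 of 9 were tested, and 0 had an unadjusted p under 0.05 in any comparison. BHLHE40, a repressor that competes at E-boxes, had a log2 difference of 0.47 (standard error 0.34) with low iron. RORA, an activator of ARNTL, had -0.83 (standard error 0.62), with 35.3 FPKM in control pig 5 and 3.91 to 7.48 FPKM in the other 8 pigs. All 3 D-box factors other than DBP were tested, with log2 differences of -0.40 (standard error 0.30) for NFIL3, a repressor, and 0.25 (standard error 0.27) for HLF with low iron. Of the kinases and ubiquitin ligases that set the life of PER and CRY proteins, 6 of 8 were tested. GSK3B, a kinase, was higher in every high-iron pig (8.45 to 13.2 FPKM) than in every control pig (7.10 to 8.12 FPKM), with a log2 difference of 0.50 (standard error 0.19, unadjusted limma p of 0.0270, limma adjusted p = 0.892). BTRC, a ligase subunit that marks PER proteins for breakdown, was at 2.20 to 3.06 FPKM in the high-iron pigs and 1.62 to 1.89 FPKM in the low-iron pigs (log2 difference 0.59, standard error 0.28, limma adjusted p = 0.712). Of 15 rhythmic liver genes 13 were tested. UPP2, a uridine phosphorylase, had a log2 difference of 0.94 with low iron (standard error 0.40, unadjusted limma p of 0.0411, limma adjusted p = 0.9998). INSIG2, a regulator of sterol synthesis, had 0.59 between the high-iron and low-iron groups (standard error 0.26, limma adjusted p = 0.697). Of 10 glucocorticoid-induced genes, chosen because adrenal hormones also drive PER1, 10 were tested. TAT, tyrosine aminotransferase, was lower in every high-iron pig than in every control pig, with a log2 difference of -0.91 (standard error 0.37, limma adjusted p = 0.892), and CEBPB had -0.67 between the high-iron and low-iron groups (standard error 0.29, limma adjusted p = 0.697).

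Because NR1D1 varied most, the 38 tested genes of these lists were set against it after the data had been seen. Of the 38, 19 were positively and 19 negatively related to NR1D1, 8 had an unadjusted p under 0.05, and 3 had an adjusted p under 0.05 over the 38, among them NFIL3 and FKBP5. NFIL3, which competes with DBP at D-boxes, had r = -0.886 (exact permutation p = 0.00212, adjusted p = 0.0269), rho -0.900 (exact permutation p = 0.00203) and r within groups -0.871 (permutation p = 0.0370). Without the 2 libraries with NR1D1 farthest from its median, control pigs 4 and 6, r was -0.710. FKBP5, a glucocorticoid-induced chaperone gene, measured 11.3, 12.4 and 24.6 FPKM in the low-iron pigs, 9.30, 41.6 and 8.35 FPKM in the control pigs, and 20.2, 9.59 and 9.30 FPKM in the high-iron pigs. FKBP5 followed NR1D1 (r = 0.857, exact permutation p = 0.00145, adjusted p = 0.0269, rho 0.967 with exact permutation p = 0.000165), with r within groups of 0.942 (permutation p = 0.00926) and 0.869 without the 2 farthest libraries. UPP2 had r = 0.843 (exact permutation p = 0.00658, adjusted p = 0.0625) and rho 0.900. Among other glucocorticoid-induced genes, r was 0.268 for TAT and -0.213 for TSC22D3. The 3 relations passed with all 9 pigs, and 0 passed the adjustment without control pig 4, 5 or 6 or high-iron pig 8. Control pig 5 and high-iron pig 2, the highest in NR1D1 and the farthest from the other libraries over all tested genes, were not left out together.

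**Figure D4:**
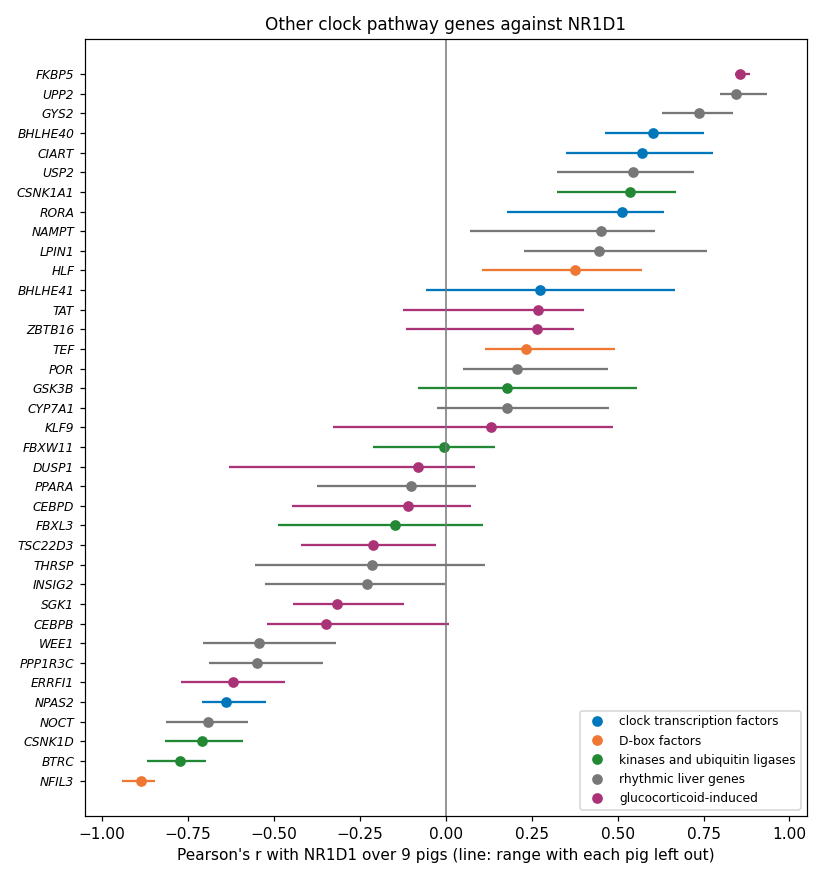
Pearson's r of 37 of the 38 tested genes of the clock pathway lists with NR1D1 over 9 pigs (horizontal axis, from -1 to 1), coloured by list, with lines for the range of r when each pig is left out. NFIL3 (-0.886) and BTRC (-0.772) stand at one end and FKBP5 (0.857) and UPP2 (0.843) at the other.

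**Figure D5:**
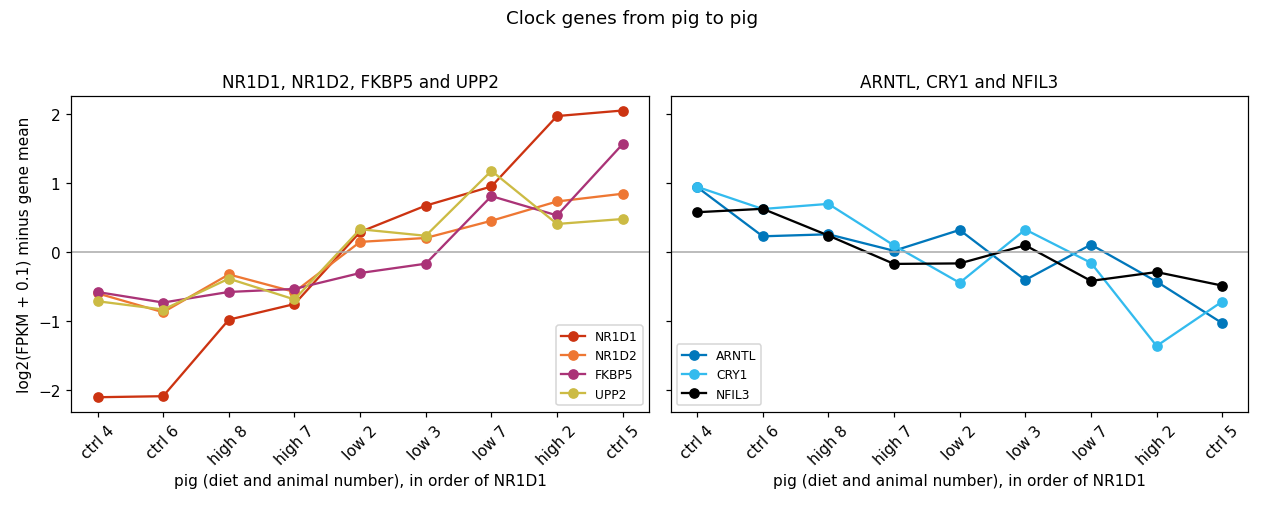
Levels of 7 genes in the 9 pigs, ordered from left to right by NR1D1, as log2(FPKM + 0.1) minus the mean of the gene. NR1D2, FKBP5 and UPP2 are low in the pigs at the left and high in those at the right, while ARNTL, CRY1 and NFIL3 run the other way, and pigs of the control group (ctrl) and of the high-iron group (high) stand at both ends.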

How the data were processed

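Liver RNA of 9 pigs was sequenced as mRNA libraries made with the NEBNext Ultra RNA kit. By the methods of the study, the authors used Hisat2 to align reads to Sscrofa11.1 and StringTie to assemble them, quantified genes as FPKM and screened genes with DESeq2 on counts. The deposited table holds FPKM for the 9 libraries and no counts, so depth per value is unknown and precision rests on the spread between pigs. All columns were used as deposited. The sum of FPKM per library lay between 416922 and 456420. The 20660 numbered genes were matched to annotation release 106 of Sscrofa11.1 by serial number, with all 20660 on protein-coding genes and 15031 when shifted by 1.

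Values were analysed as log2(FPKM + 0.1) for 12584 genes with a mean of at least 0.5 FPKM, in limma 3.58.1 (R 4.3.3), by a linear fit of the 3 groups with trended empirical Bayes moderation, 6 residual degrees of freedom and Benjamini-Hochberg adjustment over all tested genes, and by exact permutation (Python 3.11.15, pandas 2.3.3, numpy 2.4.6, scipy 1.17.1). Calls used the fold change and p thresholds of the study. The procedures were tested on simulated data. The clock genes, the other gene lists and the tests were chosen with earlier results of these data known. Named genes are the 10 clock genes, the genes called in each other list or else the 2 with the smallest p, the 5 genes most like and the 5 most unlike ARNTL and DBP, and genes that overlap a clock gene. The genes set against NR1D1, and those most like it, were added after the data were seen. Pigs were raised singly, and the 3 sequenced livers of a group were drawn at random. Alternatives were other pseudocounts, filters and scalings, library weights, a fit of only the compared groups, a replicate block, rank correlation and leaving out each library. TIMELESS, CSNK1E and ALAS1 were not analysed here. Genes under these rules that are not named are not reported here.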

Additional observations from a re-analysis of the deposited data

How the results depend on the processing

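The count of called genes moved with the settings in every comparison. Without the filter it was 331, 504 and 458 (low-iron against control, high-iron against control, high-iron against low-iron), with a pseudocount of 1 it was 34, 74 and 67, and with array quality weights it was 171 in the first and 334 in the last. With each library left out it ranged from 111 to 209, 190 to 296 and 186 to 333. The count of called clock genes was 0 in every setting but the left-out libraries, where it was 0 to 2, 0 to 1 and 0 to 0. Animal numbers 2 and 7 occur in the low-iron and high-iron groups for different animals. The deviations of same-numbered libraries were correlated at 0.0183 and 0.0213. These values cannot show whether same-numbered animals shared more than a number, because what the number stands for is not given. A fit with the number as a replicate block held only pigs 2 and 7 of each of these groups. The low-iron and high-iron pigs without a shared number were left out of it. In that fit 457 genes were called between these groups, and PER1 (-0.0949) and DBP (-0.114) turned sign. These changes cannot be credited to the block, because the pigs in the fit changed as well.

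Small differences turned sign under other settings. High-iron against control, CLOCK was 0.000138 with a pseudocount of 0.01 and 0.0230 as TPM, and PER3 was -0.0737 with median-of-ratios scaling and -0.15 with quantile normalization. High-iron against low-iron, array quality weights gave 0.36 for CRY1, -0.17 for DBP and 0.17 for PER2, and PER3 was -0.000918 with median-of-ratios scaling and -0.0855 with quantile normalization. Low-iron against control, PER2 was -0.21 with weights and -0.0603 and -0.0636 with these scalings, and PER3 was -0.0529 with weights, -0.0728 with median-of-ratios scaling, -0.0648 with quantile normalization, -0.00432 with a pseudocount of 1 and -0.00244 as TPM. With each library left out, the low-iron against control difference ranged from -0.58 to 0.41 for ARNTL, -0.54 to 0.18 for CLOCK, -0.0153 to 0.57 for CRY2, -0.20 to 0.33 for PER2 and -0.25 to 0.17 for PER3. High-iron against control, it ranged from -0.64 to 0.35 for ARNTL, -0.38 to 0.33 for CLOCK, -0.98 to 0.11 for CRY1, -0.11 to 0.33 for CRY2, -0.15 to 2.18 for NR1D1, -0.24 to 0.68 for NR1D2, -0.38 to 0.26 for PER2 and -0.21 to 0.20 for PER3. High-iron against low-iron, it ranged from -0.27 to 0.13 for ARNTL, -0.15 to 0.50 for CLOCK, -0.54 to 0.49 for CRY1, -0.48 to 0.14 for CRY2, -0.38 to 0.65 for DBP, -0.40 to 0.11 for PER2 and -0.0859 to 0.108 for PER3.

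The number of clock gene pairs past the adjustment, 2, was 1 by Spearman, 0 within groups, 0 without the 2 farthest libraries and 1 to 2 with each library left out. The number of pathway genes related to NR1D1, 3, was 1 with median-of-ratios scaling, 0 within groups and 0 to 4 with each library left out. It was 0 without the 2 libraries with NR1D1 farthest from its median. The cause was not tested. The table holds no counts, so the depth behind a value is unknown.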

Other observations

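Genes with a pattern over the 9 pigs most like that of a clock gene were ranked by Pearson's r of log2(FPKM + 0.1) as a description, and tested genes with a symbol other than a LOC number are named. Closest to ARNTL were SRI (r = 0.938, 8.77 to 23.6 FPKM), which encodes the calcium-binding protein sorcin, and CROT (0.920), a peroxisomal carnitine acyltransferase gene, followed by PPP1R3D, EPHA1 and KDM2B (0.911, 0.901 and 0.896). Most unlike ARNTL were ENPP2 (-0.883), which encodes autotaxin, AZIN1, HAVCR2, ENPP3 and TTC17 (-0.875 to -0.862). Closest to DBP were SGPP1 (0.916), a sphingosine-1-phosphate phosphatase gene, LSG1, FAAP20, AFM and HNRNPD (0.914 to 0.882), and among those most unlike it were FBXO42, ST8SIA1, SUPT7L and OCRL (-0.915 to -0.882). Next to NR1D2, the genes closest to NR1D1 were ABHD1, PITPNC1, GALP and KLHL21 (0.952 to 0.926), and those most unlike it were GLRX3 (-0.941), SMO, RAB17, KIF1C and KDF1 (-0.933 to -0.919).

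Feeding also sets the hour of the liver clock, so genes of the fasted and fed liver were read beside the clock genes. The paper states that serum was taken on an empty stomach before slaughter, but not for how long feed was withheld. Of 8 fasting genes 1 was called, between low iron and control (0.882% of all tested genes called) and between high and low iron (1.54%). PDK4, a kinase that spares glucose in fasting, measured 20.2, 23.9 and 38.8 FPKM in the low-iron pigs, 59.3, 85.5 and 39.5 FPKM in the control pigs and 26.6, 74.8 and 90.5 FPKM in the high-iron pigs. Every low-iron pig was below every control pig, with a log2 difference of -1.13 (standard error 0.45, unadjusted limma p of 0.0292, limma adjusted p = 0.9998), and the log2 difference between the high-iron and low-iron groups was 1.09 (standard error 0.45). The fasting genes did not move together. With low iron, 3 of the 8 were higher and 5 lower than in the control group, with a median log2 difference of -0.14. They ran from -1.13 for PDK4 to 1.73 for FGF21 (standard error 1.21). Of 6 fed-state genes 5 were tested and 0 were called. ACACA, of fatty acid synthesis, had a log2 difference of -0.82 between the high-iron and low-iron groups (standard error 0.38, limma adjusted p = 0.712).

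Among markers of other liver cells, 4 of 5 macrophage genes had an unadjusted limma p under 0.05 and were higher in the high-iron than in the control group, led by VSIG4 (log2 difference 0.61, standard error 0.16) and CSF1R (0.59, standard error 0.17). Of 5 endothelial genes 3 did, with VWF called (1.68, standard error 0.52), and of 5 stellate cell genes 2 did, with RGS5 (1.16, standard error 0.38) and COL1A1 (1.53, standard error 0.49) called. The limma adjusted p was 0.885 for each of these named genes. Of all tested genes, 5.59% had an unadjusted limma p under 0.05 in that comparison and 1.57% were called. Of the hepatocyte, T cell, B and plasma cell and bile duct markers, 0 had such a p in that comparison. RGS5 was also higher in every low-iron pig than in every control pig (log2 difference 0.96, standard error 0.38, limma adjusted p = 0.9998). Against the low-iron group, COL1A1 (1.51, standard error 0.49), JCHAIN (1.15, standard error 0.38) and SPP1 (1.02, standard error 0.46) were called higher in the high-iron group, VSIG4 had a log2 difference of 0.54 (standard error 0.16), CSF1R 0.45 (standard error 0.17) and CDH5 0.50 (standard error 0.19), CD2 had a log2 difference of 0.67 (standard error 0.28) and CD3D 0.80 (standard error 0.36). The limma adjusted p of these genes was 0.613 to 0.706, and 1.54% of all tested genes were called between high and low iron. The hepatocyte genes with the smallest p were AHSG (-0.46, standard error 0.27, high-iron against low-iron) and APOA1 (0.47, standard error 0.32, low-iron against control).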
